A study of Mus musculus with 12 samples.

Results

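Keratin-associated proteins are the matrix proteins of the hair shaft, and their mRNAs were followed here, by numbered subfamily, in mouse back skin treated with minoxidil or with a plant cell extract. Every gene whose name on the array starts with Krtap was taken, which gave 43 genes on 47 probes among 27373 gene names on 41174 probes. Back skin came from shaved C57BL/6J male mice, 8 weeks old, which received 200 µL daily of 3% minoxidil (MXD), of 10% Notocactus ottonis cell extract (N-CE) or of the vehicle control (VC), a mixture of propylene glycol, ethanol and water. RNA of 6 mice was pooled for each treatment at week 1, week 2 and week 3 (1W, 2W and 3W), and each treated pool was hybridized with its VC pool of the same age of treatment on a pair of arrays, the dyes exchanged between them. This gave 6 comparisons on 12 arrays.

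A value is the log2 ratio of treated over VC signal, the mean of both arrays, and its SD is the spread between 2 hybridizations of the same pools. That SD holds no difference between mice, since each condition was 1 pool. The MXD and N-CE comparisons of a week used the same VC pool, so an error in that pool would enter both. The 4 arrays of a week lay on 1 slide, so week and slide cannot be told apart. In whole skin, fewer hair-forming cells and less mRNA per cell cannot be told apart either. A gene was called when P was under 0.01 on both arrays in 1 direction and the mean fold was above 1.5 or below 0.75. No spot was marked as saturated, and 57.0% to 69.6% of spots in a channel were well above background. The marker check bore out the label of skin, with all 4 epidermal keratins (Krt1, Krt5, Krt10 and Krt14) measured in 5 comparisons and 3 of them at MXD 1W. The hair shaft markers Krt31, Krt35 and Krt85 were measured in all 6, Krt35 on 1 array at N-CE 3W.

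In the cortex of a growing hair, keratin filaments are embedded in a matrix of keratin-associated proteins. The cysteines of the high-sulfur proteins are linked to the keratins by disulfide bonds, and the cuticle is rich in proteins of still higher cysteine content. High glycine-tyrosine proteins are small, have little cysteine and belong to the matrix of the cortex. The genes are transcribed late in the upward movement of matrix cells, only while a follicle is growing, and lie in clusters of small genes.

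By subfamily number, 15 of the 43 genes were of the high glycine-tyrosine class (names Krtap6, 7, 8, 16, 19, 20, 21 and 22), 12 of the high-sulfur class (1, 2, 3, 12, 13, 14, 15, 24 and 26) and 12 of the ultra-high-sulfur class (4, 5, 9 and 17). The names Krtap28-10, Krtap28-13, Krtap31-1 and Krtap31-2 were placed in no class. Krtap13 and Krtap20-2 were below background in every comparison, and the other 41 genes were measured in all 6. Of these, 4 were read on 1 array in some comparison, Krtap9-3 at MXD 2W and 3W, Krtap19-5 at N-CE 2W and 3W, and Krtap6-1 and Krtap6-5 at N-CE 3W. In the coordinates of the array files (build mm9), the 15 glycine-tyrosine genes all lay on chromosome 16, between 88611474 and 89508568 together with 6 high-sulfur genes. The cluster on chromosome 11, between 99411699 and 99854715, held 5 high-sulfur and 8 ultra-high-sulfur genes and both Krtap31 genes, and chromosome 7 held the 4 Krtap5 genes. Krtap12-1 lay on chromosome 10 and the Krtap28 genes on chromosome 1. The gene that the array calls Krtap16-1 is named Krtap19-2 in current RefSeq.

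The probes show how the classes differ. In the stretches of 30 bases printed here, each taken from the 60-base probe whose mm9 position stands before it, capitals mark at least 3 successive glycine or tyrosine codons (GGN, TAT or TAC) for the first 3 genes and at least 2 successive cysteine codons (TGT or TGC) for the other 3.
Krtap16-3 (chr16:88962906-88962965, minus strand): gtggctctggaagcTATGGATATGGCtctg
Krtap6-1 (chr16:89032108-89032179, plus strand): gctatggctgtGGCTATGGCtcacgctctc
Krtap21-1 (chr16:89403912-89403971, minus strand): tgtGGATACGGCtcaagaTATGGCTATGGC
Krtap5-1 (chr7:149482410-149482469, minus strand): agtccagcTGCTGTaagcccTGCTGCTGTc
Krtap5-4 (chr7:149489728-149489787, plus strand): tccagtTGCTGTaaacccTGCTGCTGCcag
Krtap4-6 (chr11:99526996-99527055, minus strand): gTGCTGCcagcccaccTGCTGCcgccccag
Searched on the sense strand and in any frame, the glycine-tyrosine letters were found on 5 of 15 glycine-tyrosine probes, on 0 of 12 high-sulfur and 0 of 12 ultra-high-sulfur probes, and on 2.25% of all probes. The cysteine letters were found on 5 of the 12 ultra-high-sulfur probes, 0 of 12 high-sulfur, 2 of 15 glycine-tyrosine probes and 7.52% of all probes.

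Such repeats can let a probe bind the mRNA of a relative. Of 1076 pairs of probes of different Krtap genes, 3 had 40 or more identical bases out of 60, namely Krtap5-1 with Krtap5-4 (49 bases), Krtap16-3 with the second probe of Krtap19-1 (43 bases) and Krtap6-1 with Krtap21-1 (41 bases). The values of these pairs cannot be taken as separate measurements. Another 8 pairs had 30 to 39 identical bases.

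The members also share a feature in front of their starts. RefSeq promoters (build GRCm38.p6) were found for 39 of the 43 genes, and 37 of them held TATAAA or TATATAA on the sense strand within 250 bases before the start. The share was 14 of 14 glycine-tyrosine, 11 of 11 high-sulfur and 9 of 11 ultra-high-sulfur promoters, against 8.70% of 32851 promoters of all genes. On either strand the counts were the same, against 13.8% of all promoters, and the search letters overlap each other in TATATAAA. The 60 bases before the start are shown for members that stood at the top or the bottom of their class or at a boundary between subfamilies, with these letters in capitals.
Krtap19-4 (chr16:88885090-88885149, minus strand): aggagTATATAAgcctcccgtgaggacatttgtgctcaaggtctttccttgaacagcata
Krtap19-9b (chr16:88932265-88932324, minus strand): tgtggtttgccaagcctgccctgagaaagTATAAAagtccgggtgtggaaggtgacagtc
Krtap16-3 (chr16:88962874-88962933, minus strand): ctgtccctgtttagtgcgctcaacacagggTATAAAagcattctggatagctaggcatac
Krtap22-2 (chr16:89010760-89010819, minus strand): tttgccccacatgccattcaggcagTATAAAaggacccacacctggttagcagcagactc
Krtap6-2 (chr16:89420112-89420171, minus strand): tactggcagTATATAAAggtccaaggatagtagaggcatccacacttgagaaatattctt
Krtap8-1 (chr16:89487953-89488012, minus strand): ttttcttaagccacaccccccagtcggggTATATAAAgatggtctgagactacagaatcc
Krtap3-2 (chr11:99556854-99556913, minus strand): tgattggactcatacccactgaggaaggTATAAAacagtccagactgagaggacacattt
Krtap5-2 (chr7:142176006-142176065, minus strand): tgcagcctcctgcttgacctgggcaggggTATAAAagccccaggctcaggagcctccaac
Krtap4-6 (chr11:99665961-99666020, minus strand): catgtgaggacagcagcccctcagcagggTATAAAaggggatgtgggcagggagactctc
Krtap4-13 (chr11:99809897-99809956, minus strand): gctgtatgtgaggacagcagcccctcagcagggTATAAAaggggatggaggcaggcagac
In 10 of 14 glycine-tyrosine, 6 of 11 high-sulfur and 3 of 11 ultra-high-sulfur promoters, CTTTGA or CTTTGT, the letters bound by LEF1 and its relatives, occurred on either strand, against 27.6% of all promoters. The letters are a description of these windows, and binding was not measured.

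The levels of the genes by week and group are plotted as normalized log2 signals of single channels. In VC skin the median level of the 41 measured genes was 11.48, 14.04 and 14.53 at weeks 1, 2 and 3, and 41 of 41 genes were higher at 2W than at 1W. The median difference from 1W to 2W was 2.87 for the 14 glycine-tyrosine genes, 2.57 for the 11 high-sulfur genes and 1.33 for the 12 ultra-high-sulfur genes. Krtap16-1 had the largest difference (4.54) and Krtap5-2 the smallest (0.12). From 2W to 3W the VC level was higher for 40 of 41 genes, by a median of 0.58, the exception being Krtap19-5 (fell by 1.71), which was read on 1 of the N-CE arrays at both weeks. MXD skin stood at 12.16, 15.43 and 14.88 in the same order of weeks, with 37 of 41 genes lower at 3W than at 2W, while N-CE skin stood at 9.13, 14.49 and 14.50.

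**Figure D1:**
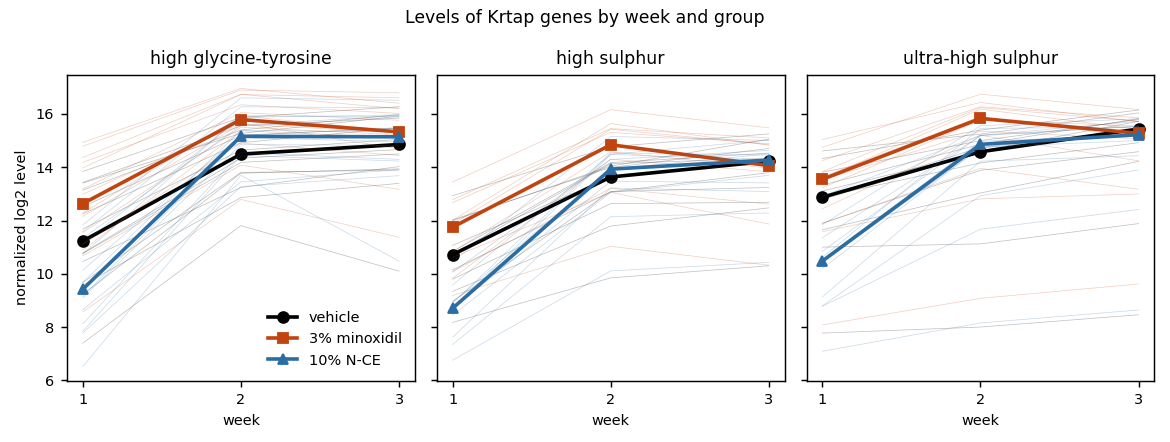
Normalized log2 level (vertical axis) by week (horizontal axis) in vehicle, 3% minoxidil and 10% N-CE skin for the 3 classes; thin lines are single genes and thick lines with symbols are class medians. The vehicle medians of the 41 genes rise from 11.48 at week 1 to 14.04 at week 2, and the N-CE medians start lowest, at 9.13.

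The same VC pool, read on the MXD arrays and again on the N-CE arrays, gives the technical error of such levels. Its 2 readings differed by less than 0.5 for 39 of 41 genes in week 1, and for 35 of 41 in each later week. The widest difference belonged to Krtap3-2, whose reading on the MXD arrays minus that on the N-CE arrays was -1.47 at 2W and -1.80 at 3W, so its levels are not compared across arrays. No test was made between weeks, as week and slide coincide.

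MXD skin at 1W had higher levels of nearly all Krtap genes than VC skin, and the glycine-tyrosine genes stood highest. The median log2 fold of the 41 genes was 0.79 ± 0.03 (SD, n = 2 arrays), with 25 genes called higher and 0 lower, where 1.25% of 18566 measured genes were called higher and 1.26% lower. By class the median was 1.37 ± 0.07 for the glycine-tyrosine genes, 0.81 ± 0.03 for the high-sulfur genes and 0.54 ± 0.04 for the ultra-high-sulfur genes. Of the glycine-tyrosine genes 14 of 14 were called higher, of the high-sulfur genes 8 of 11, of the ultra-high-sulfur genes 2 of 12 (Krtap9-3 and Krtap17-1), and of the unclassed genes 1 of 4 (Krtap28-10). All 12 ultra-high-sulfur genes were above 0 on both arrays. The 10 not called had mean folds from 1.20 (Krtap4-6) to 1.51 (Krtap5-2), where the threshold was 1.5. Krtap5-2 passed that threshold and missed on P.

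Krtap19-4 had the highest value, 1.73 on the first array and 1.87 on the second, and Krtap16-1 followed with 1.90 and 1.59. The lowest of the glycine-tyrosine genes was Krtap7-1 with 0.82 and 0.58, which lay below Krtap14, the highest high-sulfur gene, with 1.25 and 1.08. Among the ultra-high-sulfur genes Krtap9-3 was highest with 0.74 and 0.90 and Krtap4-6 lowest with 0.20 and 0.33. Of the 14 glycine-tyrosine genes, 12 stood above every ultra-high-sulfur gene, and only Krtap7-1 and Krtap8-1 did not. Over the members the values of both arrays had a correlation of 0.84 (41 genes of the same pools, which are not independent replicates).

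At 2W nearly all Krtap genes were called higher in MXD skin, and the class medians lay close together. The median of the 41 genes was 1.39 ± 0.29, with 39 genes called higher and 0 lower, against 6.21% and 10% of 18770 measured genes. The class medians were 1.54 ± 0.33 (glycine-tyrosine, 14 of 14 called), 1.31 ± 0.03 (high-sulfur, 11 of 11) and 1.40 ± 0.49 (ultra-high-sulfur, 11 of 12). Krtap9-3 was read on 1 array only (1.71), the other spot being marked as an outlier, and could not be called, and Krtap31-2 was not called with 1.17 and 0.36. Krtap19-9b was highest of the glycine-tyrosine genes with 1.97 and 1.52, and Krtap4-13 lowest of the ultra-high-sulfur genes with 0.84 and 1.27. The order of single genes was not repeatable at this time, since the arrays had a correlation of -0.14 over 40 members, and the ultra-high-sulfur median was 1.72 on the first array and 1.03 on the second.

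At 3W fewer Krtap genes were called in MXD skin, and the gap within the glycine-tyrosine class was widest. The median of the 41 genes was 0.19 (0.25 and 0.22 on each array alone). Of these genes 9 were called higher and 1 lower, against 0.292% and 0.286% of 17453 measured genes. All 7 called glycine-tyrosine genes bore the names Krtap16 or Krtap19, and the other 2 called higher were Krtap5-2 and Krtap5-3, which are ultra-high-sulfur genes. Krtap4-13, a further ultra-high-sulfur gene, was the single one called lower. The glycine-tyrosine median was 0.58 ± 0.06, the high-sulfur median 0.16 ± 0.13 with 0 of 11 called, and the ultra-high-sulfur median -0.04 ± 0.12.

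Krtap19-4 was again highest, with 1.45 on the first array and 1.59 on the second. Krtap16-1 (1.42 and 1.21), Krtap19-1 (1.37 and 1.24) and Krtap16-3 (1.31 and 1.19) came next. Krtap19-5 read 1.47 and 0.89, Krtap19-3 read 0.97 and 1.02, and Krtap19-9b read 0.89 and 0.71. All 7 lay above every other glycine-tyrosine gene, of which Krtap21-1 was highest with 0.30 and 0.42 and Krtap6-1 lowest with 0.40 and -0.25. By the mean of both arrays, the same 7 lay above the other 7 at MXD 1W, MXD 2W and N-CE 2W as well. On each array alone the 7 and the other 7 overlapped in those comparisons. At MXD 1W, for example, Krtap16-3 (1.36) lay below Krtap6-5 (1.42) on the first array, as did Krtap19-5 (1.16) below Krtap6-5 (1.29) on the second. At MXD 3W the median of the Krtap16 and Krtap19 names was 1.25 ± 0.12. That of the other 7 was 0.20 (0.27 and 0.24 on each array alone), a value close to the high-sulfur genes. The arrays had a correlation of 0.91 over 40 members at 3W.

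N-CE skin at 1W had lower levels of every measured Krtap gene than VC skin. The median was -2.14 ± 0.02, and 41 of 41 genes were called lower, against 2.78% of 18252 measured genes called lower and 0.542% called higher. The class medians were -2.06 ± 0.05 for glycine-tyrosine, -2.07 ± 0.13 for high-sulfur and -2.52 ± 0.13 for ultra-high-sulfur genes. Glycine-tyrosine and high-sulfur genes lay together, and the ultra-high-sulfur genes lay lowest, with a high-sulfur minus ultra-high-sulfur difference of 0.45 on both arrays. With a normexp background in place of the deposited ratio, the medians were -1.82, -1.88 and -2.50 in the same order.

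Among single genes Krtap28-10, in no class, was lowest with -3.42 and -3.45, followed by Krtap4-13 with -3.15 and -3.10 and Krtap4-2 with -2.93 and -2.96. Krtap3-2 was least reduced with -0.87 and -0.90, although its neighbours in the chromosome 11 cluster, Krtap3-1 and Krtap3-3, had means of -2.62 and -2.29. Other small values belonged to Krtap31-2 (-0.99 and -1.41), Krtap5-3 (-1.41 and -1.26) and Krtap4-6 (-1.62 and -1.52). The dimmer genes depended on the background correction. With normexp Krtap28-10 stood at -2.62, above Krtap4-13 at -2.87, and Krtap12-1 moved from -2.73 to -1.995, Krtap24-1 from -2.14 to -1.06 and Krtap5-3 from -1.34 to -0.73. Krtap19-5, which entered the medians with -2.23, was not well above background on either array of N-CE skin and was at least 1.70-fold lower there. The glycine-tyrosine genes were the most even, from -2.25 (Krtap6-2) to -1.71 (Krtap19-4), while the high-sulfur genes ran from -2.73 to -0.88 and the ultra-high-sulfur genes from -3.12 to -1.34.

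At 2W the N-CE values were above 0 for most members but mostly below the threshold. The median was 0.35 ± 0.17, with 1 gene called higher and 0 lower, against 0.118% and 0.0749% of 18692 measured genes. The called gene was Krtap19-4, with 0.60 and 0.97. The class medians were 0.43 ± 0.15, 0.30 ± 0.02 and 0.20 ± 0.37 in the order glycine-tyrosine, high-sulfur and ultra-high-sulfur. Over the 41 genes, 28 were above 0 on both arrays and Krtap4-13 was below 0 on both (-0.42 and -0.03). Krtap19-5 was read on 1 array only, with 1.20. The arrays again shared no order of members, with a correlation of -0.08 over 40 genes. Over 16600 genes of the array the correlation was -0.16, against 0.74 over 16188 genes at MXD 2W. Gene values at N-CE 2W thus did not repeat between the arrays in general, which limits every value of this comparison.

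At 3W N-CE and VC skin differed little. The median was -0.03 ± 0.04, with 1 gene called higher and 0 lower, against 0.207% and 0.213% of 18803 measured genes. That gene was Krtap5-2, with 0.62 and 0.67, and Krtap5-3 stood beside it with 0.60 and 0.56 without being called. The glycine-tyrosine median was 0.12 (0.16 and 0.13 on each array alone). The other class medians were -0.05 ± 0.10 for high-sulfur and -0.20 ± 0.15 for ultra-high-sulfur genes. All 5 Krtap4 genes were below 0 on both arrays, from -0.50 (Krtap4-13) to -0.13 (Krtap4-7). Krtap6-1, Krtap6-5 and Krtap19-5 were each read on 1 array.

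**Figure D2:**
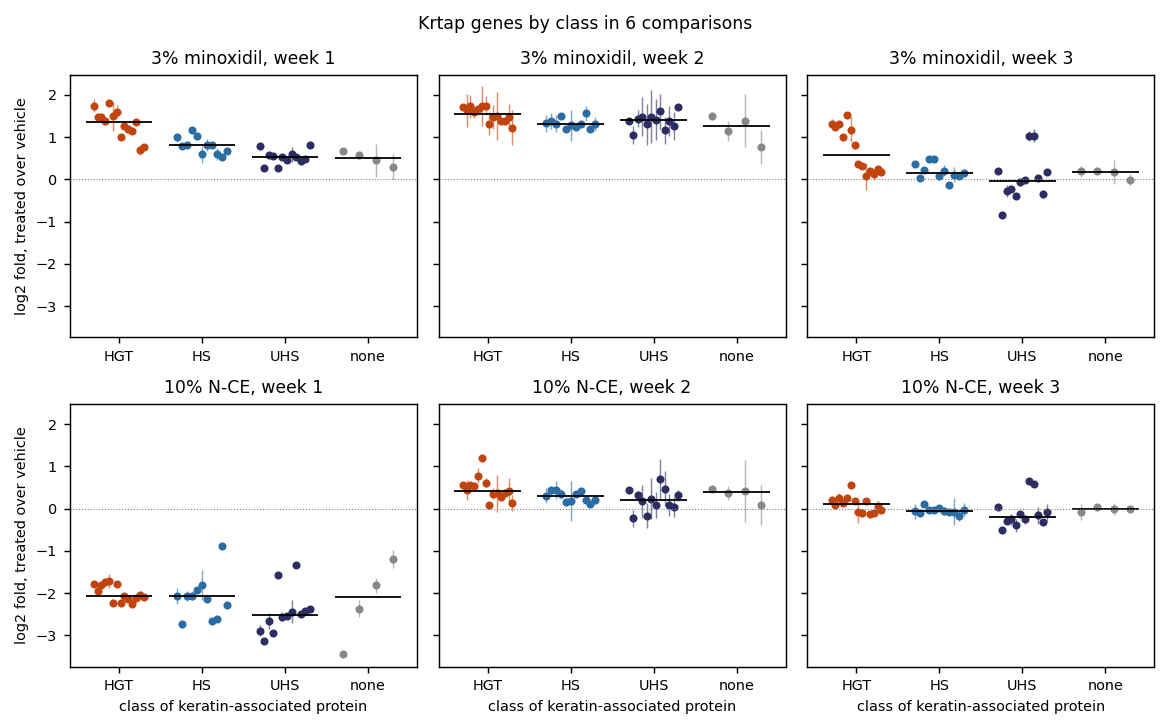
Log2 fold of treated over vehicle (vertical axis) for each of the 41 measured Krtap genes by class (HGT, high glycine-tyrosine; HS, high sulfur; UHS, ultra-high sulfur) in 6 panels, 1 for each comparison; points are means, thin lines join both arrays and black bars are class medians. The HGT median is 1.37 and the UHS median 0.54 at week 1 of minoxidil, and all points are below 0 at week 1 of N-CE.

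Set against both sulfur-rich classes together, the glycine-tyrosine genes had the higher median in each of the 6 comparisons. The difference of medians was 0.78 ± 0.01 at MXD 1W, 0.21 ± 0.10 at MXD 2W, 0.50 ± 0.10 at MXD 3W, 0.37 ± 0.03 at N-CE 1W, 0.19 ± 0.01 at N-CE 2W and 0.20 ± 0.18 at N-CE 3W. On 12 of 12 arrays the glycine-tyrosine median was above the ultra-high-sulfur median, and on 8 of 12 the order was glycine-tyrosine, high sulfur, ultra-high sulfur. The comparisons of a week share their VC pool, so these are not 6 separate observations.

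The difference was smaller without the names Krtap16 and Krtap19. When these 7 genes were left out, a choice made after seeing the values, the difference from the sulfur-rich genes was 0.55 at MXD 1W, 0.045 at MXD 2W, 0.11 at MXD 3W, 0.31 at N-CE 1W, 0.12 at N-CE 2W and -0.0041 at N-CE 3W. Within the glycine-tyrosine class the 7 genes had a median 0.36 ± 0.22 above the other 7 at MXD 1W, 0.33 ± 0.02 above at MXD 2W, and 1.05 ± 0.10 above at MXD 3W. For N-CE the same difference was 0.33 at the first week (0.30 on each array alone). It was 0.19 at the second (0.31 and 0.44 on each array alone) and 0.29 ± 0.05 at the third.

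**Figure D3:**
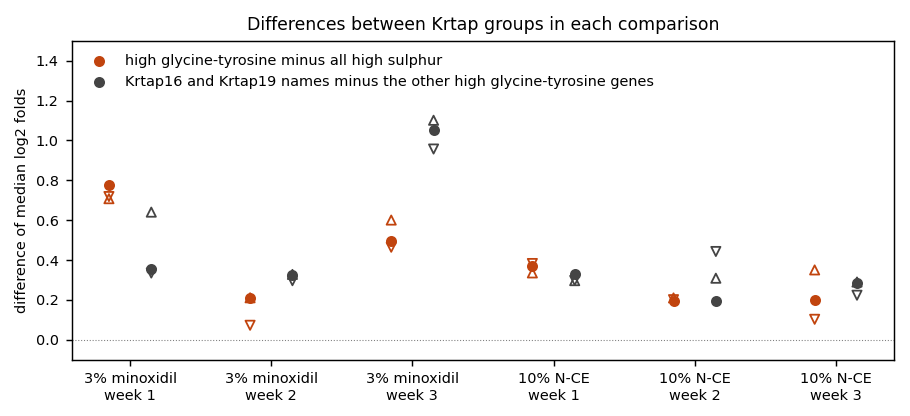
Difference of median log2 folds (vertical axis) in each comparison (horizontal axis) for high glycine-tyrosine minus all sulfur-rich genes and for the 7 Krtap16 and Krtap19 names minus the other 7 high glycine-tyrosine genes; filled points use the mean of both arrays, open triangles each array alone, upward for the first array and downward for the second. The largest difference is 1.05, between the 7 Krtap16 and Krtap19 names and the other 7 genes at week 3 of minoxidil.

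The 7 genes are neighbours on chromosome 16. In mm9 their probes lay between 88869384 (Krtap19-1) and 88962965 (Krtap16-3), with no other Krtap probe of the array among them. On one side lay Krtap14 and Krtap15, which read 0.47 and 0.49 at MXD 3W, and on the other Krtap22-2, which read 0.32 although it is a glycine-tyrosine gene. Farther along, Krtap6-1, Krtap6-5, Krtap21-1, Krtap6-2, Krtap8-1 and Krtap7-1 read from 0.08 to 0.36. Krtap24-1, Krtap26-1 and Krtap13-1, at the far end beyond Krtap14, read from -0.12 to 0.22. Position and subfamily coincide for these genes and cannot be told apart.

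**Figure D4:**
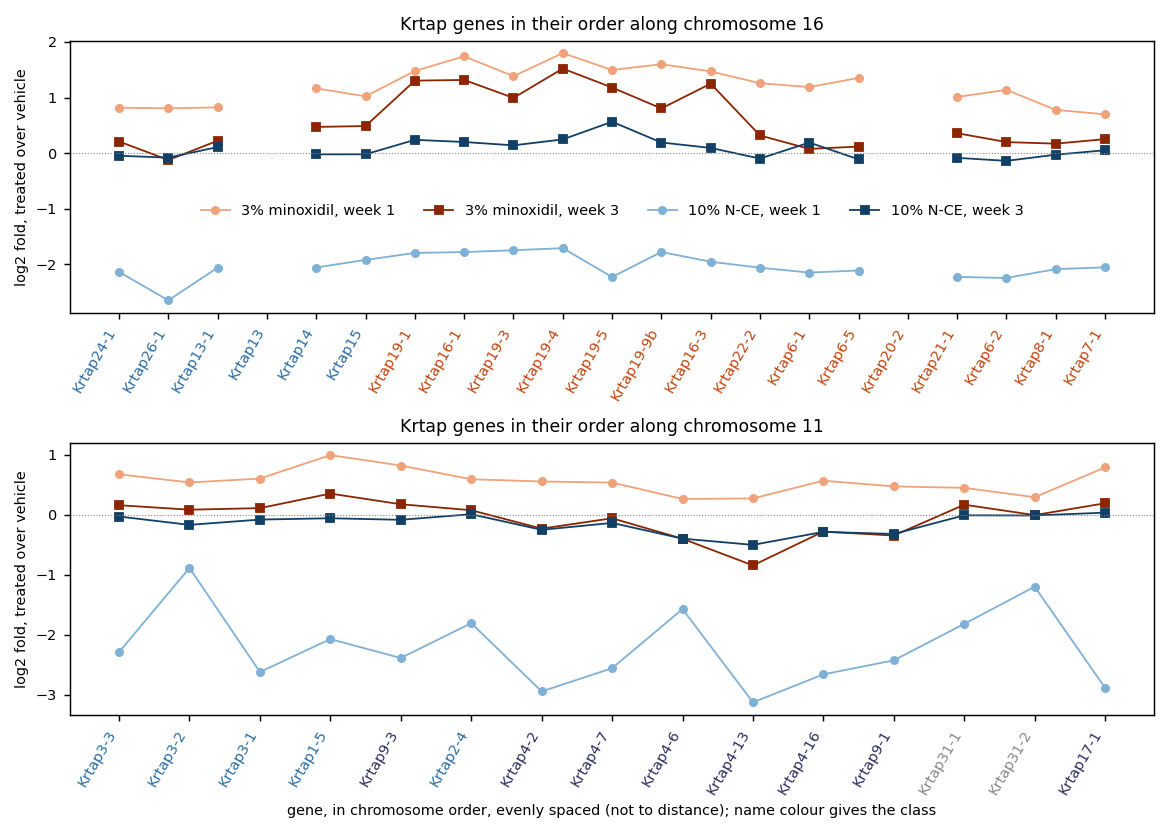
Log2 fold of treated over vehicle (vertical axis) for the Krtap genes in their order along chromosomes 16 and 11 (horizontal axis, evenly spaced), with name colours for the class (red, high glycine-tyrosine; light blue, high sulfur; dark blue, ultra-high sulfur; grey, no class); gaps are genes below background. At week 3 of minoxidil the run from Krtap19-1 to Krtap16-3 reads 0.80 to 1.52, and on chromosome 11 Krtap4-13 is lowest with -0.84.

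The high-sulfur genes lie in both clusters, with different subfamilies in each, so chromosome and subfamily cannot be told apart among them. At MXD 1W the 5 measured high-sulfur genes of chromosome 16 had a median of 0.82, and the 5 of chromosome 11 a median of 0.60. At MXD 3W these medians were 0.22 and 0.11, and at N-CE 1W they were -2.06 and -2.07. The 8 ultra-high-sulfur genes of chromosome 11 read 0.55, -0.25 and -2.61 in these comparisons, and the 14 glycine-tyrosine genes of chromosome 16 read 1.37, 0.58 and -2.06.

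Within the ultra-high-sulfur class Krtap5-2 and Krtap5-3 parted from the Krtap4 genes at 3W. The 5 Krtap4 genes had a median of -0.28 ± 0.12 at MXD 3W and -0.28 ± 0.09 at N-CE 3W. Krtap9-1, which lies next to Krtap4-16, read -0.24 and -0.45 at MXD 3W. The 4 Krtap5 genes of chromosome 7 fell into a low and a high pair, each made up of neighbours. Krtap5-2 read 1.15 and 0.90 and Krtap5-3 read 0.89 and 1.18 at MXD 3W, while Krtap5-1 read 0.03 and -0.06 and Krtap5-4 read -0.01 and 0.06. At N-CE 3W the means were 0.64 for Krtap5-2 and 0.58 for Krtap5-3. Those of Krtap5-1 (-0.25) and Krtap5-4 (-0.16) lay within the range of the Krtap4 genes. Krtap5-3 had the lowest mean signal of the measured Krtap genes. At MXD 1W the 4 Krtap5 genes had lain together between 0.44 and 0.59. Krtap5-1 and Krtap5-4 have the near-identical probes shown above, so their agreement can come from shared binding, which was not tested.

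Where a gene had several probes, they had the same sign in all comparisons but that of N-CE 3W, where the probes of Krtap3-1, not called there, read -0.079, -0.11 and 0.070. The probes of Krtap19-1 read 1.48 and 1.52 at MXD 1W and 1.30 and 1.61 at MXD 3W. The 3 probes of Krtap3-1 differed in size at N-CE 1W, with -2.62, -1.89 and -1.83, and so did those of Krtap8-1, with -2.09 and -1.53. The first value is that of the brighter probe, which represents the gene.

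The hair keratins, which form the filaments that these proteins embed, moved to a similar extent. Of 15 listed hair shaft keratins 12 were measured, with a median of 0.61 ± 0.12 (4 called higher) at MXD 1W, 1.34 ± 0.33 (12 called higher) at MXD 2W and 0.28 ± 0.04 (0 called) at MXD 3W. At N-CE 1W their median was -2.30 ± 0.20 with 11 called lower, Krt84 standing apart at 0.05. At MXD 3W the highest hair keratin, Krt33a with 0.37, was below all 7 Krtap16 and Krtap19 names. The 6 measured genes listed for the inner root sheath, the layer around the shaft, had medians of 0.45 ± 0.05, 1.22 ± 0.13, -0.08 ± 0.05 and -2.81 ± 0.16 in these 4 comparisons. Of 8 regulators and other genes of the shaft, among them Lef1, Hoxc13, Msx2 and Dsg4, 8 were called higher at MXD 2W and 8 lower at N-CE 1W. The shares of all measured genes were 6.21% and 2.78%. At MXD 1W 1 of the 8 was called higher, and 0 were called at MXD 3W, N-CE 2W and N-CE 3W.

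Markers of other cell types moved as well. The melanocyte markers (Tyr, Tyrp1, Dct and Mlana), genes of the pigment cells of the hair bulb, moved in the same direction as the Krtap genes in the MXD comparisons and at N-CE 1W. Their median was 0.76 at MXD 1W (3 of 3 measured called higher), 1.32 at MXD 2W (4 of 4) and 0.74 at MXD 3W (3 of 4). Of all measured genes, 1.25%, 6.21% and 0.292% were called higher there. At N-CE 1W the melanocyte median was -1.79, with 3 of 3 measured called lower, against 2.78% of all measured genes. Tyrp1 stood at -2.02, Dct at -1.79 and Mlana at -0.89. At N-CE 2W and 3W the melanocyte median was 0.54 both times, with 0 and 1 called higher, against 0.118% and 0.207% of all measured genes.

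The 3 skeletal muscle markers (Acta1, Myh4 and Ckm) had medians of -1.03 at MXD 1W and -1.46 at MXD 2W, with 3 of 3 called lower both times, and -0.41 at MXD 3W with 0 called. At MXD 2W markers of further cell types were lower. The epidermal keratins Krt1 (-0.64 and -1.95 on the arrays) and Krt10 (-1.15 and -1.70), made in the differentiating layers, were called lower. Krt5 and Krt14 of the basal layer were not called. Of 3 adipocyte markers 2 were called lower, Adipoq and Plin1, with a list median of -0.79, and of 3 fibroblast markers Col3a1 alone, with a list median of -0.82. Of all measured genes, 1.26% were called lower at MXD 1W and 10% at MXD 2W. At N-CE 1W the muscle median was -0.14, the epidermal 0.04, the fibroblast 0.02 and the adipocyte 0.31, with 0 called in these lists. The part of these shifts and of the melanocyte shift in the Krtap values was not tested.

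Taking the 3 weekly values as replicates of a treatment, limma with Benjamini-Hochberg adjustment over 41174 probes called 0 of 47 Krtap probes for MXD, 0 for N-CE and 0 for the difference between MXD and N-CE. Each fit also called 0 of all 41174 probes, so these counts are not particular to the Krtap probes. Of the 45 Krtap probes above background in each week, the same fits held 15, 0 and 0 at an unadjusted p under 0.05, where the shares of all probes above background were 9.07%, 3.35% and 3.88%. In the MXD fit the probes that ranked first were the second probe of Krtap19-1 (mean log2 1.59 ± 0.04 SE) and that of Krtap19-4 (1.66 ± 0.07 SE), each with a limma adjusted p = 0.625. With the 6 arrays in the fit and the slide as a random block, these were the 2 Krtap probes called, with limma adjusted p values of 0.00478 and 0.00646. Calls among all probes were not counted for that fit. Its correlation within a slide was 0.18, so repeat hybridizations counted nearly as separate samples, and these p values do not measure differences between mice. The arrays of a slide are repeat hybridizations of the same pools, and all 3 weeks of these probes were above 0 for MXD.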

How the data were processed

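Total RNA of pooled mouse skin was labelled with Cy3 and Cy5 and hybridized to Agilent 60-mer whole mouse genome arrays. Per the file headers, the authors scanned and extracted the intensities with background subtraction and LOWESS dye normalization, giving a log10 ratio of Cy5 over Cy3 and a p-value per spot. The submitters' processing notes name Agilent Feature Extraction 11.0.1.1, while the headers name another version. The deposited value table, log10 ratios of the processed signals, served as an alternative.

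Here each ratio was given the direction treated over VC on a log2 scale, spots marked as outliers were dropped, and spots of a probe were averaged. A gene was represented by its brightest probe, and was measured when well above background in at least 1 channel of a comparison. Channel levels came from normexp (offset 50), loess and Aquantile normalization in limma 3.58.1 (R 4.3.3). Scripts were tested on simulated data. The precision is limited by the number of arrays, 2 for each comparison. Classes followed the subfamily number. Values of both arrays are given for the highest and lowest gene of a class, for genes called against the majority and for genes of a boundary or with probes that differ. Members, lists and tests were chosen with earlier results of these data known. Alternatives were another background correction, the value table, each array alone, kept outlier spots, other filters and thresholds, the mean over probes, and RefSeq names. Columns of comparisons by the authors were not used beyond the ratio and p-value of each spot.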

Additional observations from a re-analysis of the deposited data

Results flagged for a closer look

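Under N-CE the medians of 2 classes were below 0 on both arrays at 1W and above 0 on both arrays of a later week. The glycine-tyrosine median was 2.48 higher at 2W than at 1W and 2.17 higher at 3W than at 1W on the log2 scale, and the high-sulfur median was 2.38 higher at 2W than at 1W. These differences between weeks were not tested, as each week was 1 pool a group on 1 slide.

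Of single genes, 3 were called in opposite directions at different weeks of a treatment. Krtap4-13 was called higher at MXD 2W and lower at MXD 3W, a difference of -1.90. Krtap5-2 was called lower at N-CE 1W and higher at N-CE 3W, a difference of 3.08, and Krtap19-4 was called lower at N-CE 1W and higher at N-CE 2W, a difference of 2.49. These differences were not tested either.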

How the results depend on the processing

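No called gene that the text names changed sign under any alternative run. With normexp and loess the median of all Krtap genes was 0.75 at MXD 1W and -2.01 at N-CE 1W, and the glycine-tyrosine minus sulfur-rich difference was 0.72 at MXD 1W and 0.20 at N-CE 2W. With no filter on dim genes the difference was 0.76 at MXD 1W, 0.26 at MXD 3W and 0.19 at N-CE 2W, and the N-CE 1W median was -2.11, the same as with the mean over all probes (-2.11). With genes above background in both groups the N-CE 2W difference was 0.18. Without the names Krtap16 and Krtap19, an alternative added after seeing the data, the difference was 0.55, 0.045 and 0.11 at MXD 1W, 2W and 3W and 0.31, 0.12 and -0.0041 at N-CE 1W, 2W and 3W. By fold alone 3 genes were higher at N-CE 2W and 1 lower at N-CE 3W, with no share of all measured genes given for that rule. The limma block on slide, a fit of repeat hybridizations, gave 2 Krtap probes for MXD in place of 0.

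On 1 array alone, the median of all Krtap genes ran from 0.79 to 0.83 at MXD 1W, from 1.22 to 1.64 at MXD 2W, from 0.22 to 0.25 at MXD 3W, from -2.17 to -2.14 at N-CE 1W, from 0.19 (second array) to 0.43 (first array) at N-CE 2W and from -0.044 to 0.012 at N-CE 3W. The class difference ran from 0.71 to 0.72 at MXD 1W, 0.073 to 0.21 at MXD 2W, 0.46 to 0.60 at MXD 3W, 0.34 to 0.38 at N-CE 1W, 0.20 to 0.21 at N-CE 2W and 0.10 (second array) to 0.35 (first array) at N-CE 3W. Calls on 1 array ran from 3 to 12 higher at N-CE 2W, and from 1 to 2 higher and 0 to 2 lower at N-CE 3W. No share of all measured genes is given for calls on 1 array, so these counts have no background to be read against. RefSeq names added no member. Classes from protein composition were not run. Spot signal over background limits the dimmest genes, such as Krtap5-3 and Krtap19-5 at 1W. The labels give no replicate numbers, so no fit with a replicate block was made, while the limma fit of MXD minus N-CE pairs the comparisons of a week, which share a VC pool.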
